A study of Saccharomyces cerevisiae with 7 samples.

Results

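Wild type budding yeast, Saccharomyces cerevisiae, was compared at 37C and at 25C on 3 of the 7 arrays of a study of the cohesin loader subunit Scc2 and the chromatin remodeller subunit Sth1. The 3 arrays were those whose sample titles name wild type cells, 1 at 25C and 2 at 37C. The wild type strain is YK700, of mating type a (MATa), with the alleles his3-11,15, ura3-52 and leu2-3, 112, together with can1-100, ade2-1 and trp1-1, and it is marked GAL and psi+. The other 4 arrays hold 2 mutant strains at 37C and were used here to estimate the spread and as further 37C arrays. They are scc2-4 (strain Y4251, MATa, with Scc1-Pk9::TRP1 and Sth1-9myc::URA3) and sth1-3 (strain Y4343, MATα, with sth1-3ts and Scc2-Pk9::TRP1), with 2 arrays each. All cultures grew exponentially in YP medium (2% glucose) until the OD600 reached 0.25, and the 37C cultures were then kept at 37C for 2 h. The growth text of the 25C sample also describes that shift, so its temperature rests on its title and source name. The 25C state is thus 1 sample with no replicate, and the wild type comparison rests on 1 strain.

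A rise in temperature unfolds proteins, and yeast answers through the transcription factor Hsf1, which drives the genes of chaperones, and through Msn2 and Msn4, which drive general stress genes. The cell integrity pathway, with the kinases Pkc1 and Slt2, answers to heat at the cell wall. Genes of ribosomes and of ribosome assembly are known to be turned down soon after a shift, and much of this response is transient.

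No gene passed the threshold. Of 5449 genes tested with limma, 0 reached an adjusted p under 0.05 (0% of the genes), and the smallest adjusted p was 0.449. The spread in that fit came from the replicates of wild type at 37C and of either mutant, with a limit given below. At an unadjusted p under 0.05, 177 genes lay higher at 37C (3.25% of the genes) and 378 lay lower (6.94%). That split, 31.9% higher, moved with the scaling of the arrays, to 304 higher and 221 lower (57.9% higher) with median centring, 303 and 272 (52.7%) with quantile normalization over S. cerevisiae genes, 268 and 249 (51.8%) with cyclic loess, and 128 and 512 (20%) with centring on the S. pombe probe sets, with 0 genes called each time. Levels are given throughout as log2 signal, 1 value per array, and differences as the mean of the 37C arrays minus the 25C array. The genes are therefore described by their values, and higher or lower stands for a measured difference, not for a called change. A fit of the 3 wild type arrays alone called 911 genes, 291 higher and 620 lower, but it has 1 residual degree of freedom and gave every gene the same spread. With 1 array against 2, an exact permutation test of a single gene could not go below p = 0.333.

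Signal over background was low, and the 3 arrays differed in more than temperature. Background was set on each array at the 95th percentile of the probe sets for the fission yeast Schizosaccharomyces pombe, which share the array. Above it lay 705 genes (12.9%) on the 25C array and 491 (9.01%) and 486 (8.92%) on the 37C arrays, and 1034 genes on at least 1 of the 3. The bacterial hybridisation controls averaged 12.53 on the 25C array and 11.70 and 11.72 on the 37C arrays. Over all 7 arrays these controls formed a set of 3 arrays, with the wild type 25C array and replicate 1 of either mutant (12.25 to 12.53), and a set of 4, with both wild type 37C arrays and replicate 2 of either mutant (11.52 to 11.72). In wild type cells, temperature and array set therefore cannot be told apart. The replicates of either mutant lie in different sets, so the spread in the main limma fit also holds the set difference. This raises p most in genes that differ between the sets in the mutants. The lack of called genes is thus not a measure against replicate noise alone. The control probe sets of ACT1, the actin gene, averaged 10.45 at 25C and 9.02 and 8.97 at 37C, with 5 of 6 lower. Those of the 18S ribosomal RNA averaged 11.18 at 25C and 12.85 and 13.12 at 37C. The part of the array set in the results below was examined through the mutants, whose arrays are all from 37C cells but fall into both sets. The set-adjusted difference of a gene is its wild type difference minus the difference between the mutants' arrays of the 2 sets. It treats the set difference of the mutants, which also holds the difference between their replicates, as that of the wild type.

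The 25C array resembled the mutant 37C arrays of its own set more than it resembled the wild type 37C arrays. Over the 5449 genes it correlated at r = 0.897 with scc2-4 replicate 1 and at 0.917 with sth1-3 replicate 1, but at 0.691 and 0.725 with the wild type 37C arrays. These correlations run across genes within pairs of arrays and are descriptions. Levels differed by more than 1 log2 unit in 250 and 152 genes from those mutant arrays and in 1303 and 995 genes from the wild type 37C arrays. The wild type 37C arrays correlated with each other at 0.915, with 164 genes differing by more than 1 log2 unit. The first of them correlated at 0.98 with scc2-4 replicate 2 of the same set, with 10 such genes.

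By the mean of the 37C arrays, 356 genes lay more than 1 log2 unit higher at 37C and 723 more than 1 log2 unit lower. Of the former, 93 were above background on both 37C arrays, and of the latter, 261 were above background at 25C. The first filter asks for 2 arrays and the second for 1. The median gene lay 0.17 lower at 37C, and differences of gene lists are best read beside that value. In all, 3276 of the 5449 genes lay lower at 37C and 2173 higher. Counts of lower and higher list members are best read beside these. Counts at an unadjusted p under 0.05 are best read beside the 3.25% higher and 6.94% lower of all genes. The 25C value lay below both 37C values in 1697 genes (31.1% of the genes) and above both in 2729 (50.1%), so a lack of overlap between 1 value and 2 was common. Of the 41 gene lists described here, 37 had a median difference under 0 and 26 a median below that of all genes. After adjustment for the array set, the median of 34 lists lay within 0.2 of 0.

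**Figure D1:**
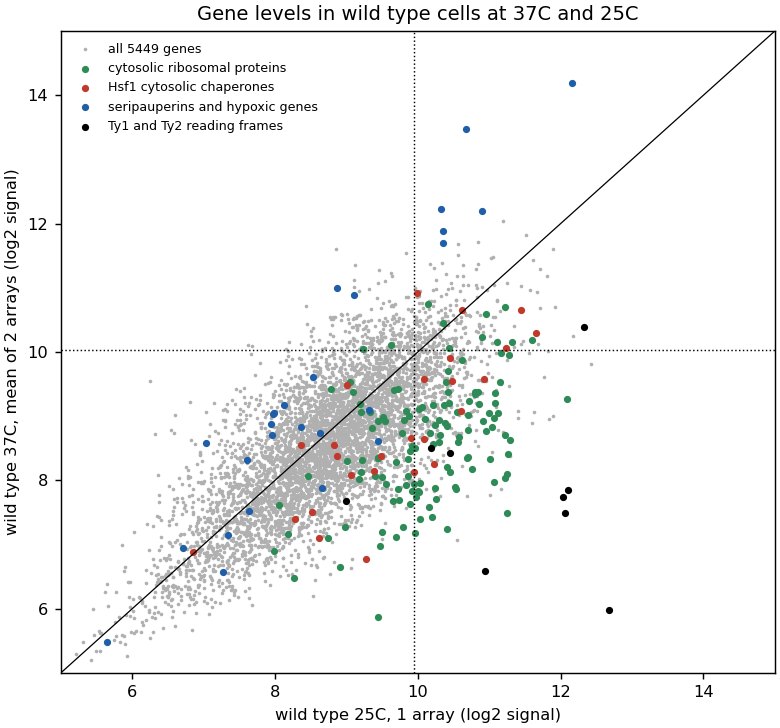
Level of each gene in wild type cells at 25C (1 array, x axis) and at 37C (mean of 2 arrays, y axis), in log2 signal. Coloured points are 4 gene lists, the solid line marks equal levels and the dotted lines the background of the arrays. The ribosomal protein genes and the Ty genes lie mostly under the line, and the seripauperin genes with the highest signal lie above it.

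Most genes of the Hsf1-driven cytosolic chaperones lay lower, not higher, on the 37C arrays. Of the 26 genes measured, 21 lay lower and 5 higher, with a median difference of -0.997 against -0.17 over all genes. At an unadjusted p under 0.05, 8 lay lower (30.8% of the list) and 0 higher, against 6.94% and 3.25% of all genes. Above background were 13 of them at 25C, 4 and 6 on the 37C arrays. After set adjustment the list's median was -0.38. With the array set as a term in limma, 1 gene lay lower and 0 higher at an unadjusted p under 0.05. Of all genes, 1.3% lay lower and 0.661% higher in that fit.

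STI1 encodes a co-chaperone that links Hsp70 to Hsp90. It measured 11.66 at 25C and 10.31 and 10.27 at 37C, a 2.58-fold lower level (limma adjusted p = 0.449). Both Hsp90 genes also had their highest wild type value at 25C. HSP82, the heat-inducible one, measured 10.93 at 25C and 9.37 and 9.78 at 37C, which is at least 1.87-fold lower, since neither 37C array was above background. HSC82, its paralog of constant expression, measured 9.91 at 25C and 8.94 and 8.38 at 37C, below background on all 3 arrays, and its direction turned with set adjustment (0.14). A fold against a group with an array below background is given as "at least", and for each array of that group it uses the background or the measured value, whichever is larger. Of the genes given such a fold below, SSA1, HOR7, HSP12, TPS1, BUD22, TIF3, ENO2 and YAR010C were above background on 1 of the 2 arrays at 37C.

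The cytosolic Hsp70 genes, whose products fold new and damaged proteins, also had their highest wild type value at 25C. SSA1 measured 11.23 at 25C and 9.94 and 10.17 at 37C, at least 2.23-fold lower. SSA2 measured 10.08 at 25C and 8.48 and 8.80 at 37C, with a set-adjusted difference of 0.032 in the other direction. SSA4, which is nearly silent in unstressed cells in common descriptions of the gene, measured 11.45 at 25C and 10.86 and 10.45 at 37C, 1.73-fold lower. SSA genes are near copies of each other, and probes of one can bind another. HSP104, the gene of the disaggregase that heat induces strongly in textbook descriptions, was below background on all 3 arrays, at 9.27 at 25C and 6.83 and 6.71 at 37C. The small heat shock protein gene HSP26 was below background too, at 9.06 at 25C and 8.15 and 8.01 at 37C.

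Partners of Hsp70 and Hsp90 followed in part. SSE1, the gene of an Hsp110 nucleotide exchange factor, measured 9.94 at 25C and 8.26 and 7.99 at 37C. HCH1, which encodes an activator of Hsp90, measured 10.23 at 25C and 8.04 and 8.45 at 37C. On the mutant 37C arrays of the 25C array's set, SSE1 measured 10.03 and 9.85 and HCH1 8.96 and 10.36. Neither gene thus lay highest on the 25C array. YDJ1, the gene of the main cytosolic J-protein, measured 10.45 at 25C and 9.73 and 10.07 at 37C, and its direction turned with set adjustment (0.17). The 5 genes of the list that lay higher at 37C were HSF1, HSP42, SIS1, CUR1 and SSE2. HSF1 itself, the gene of the transcription factor, measured 9.99 at 25C and 11.13 and 10.71 at 37C, 1.90-fold higher, and its direction turned with set adjustment (-0.35). HSP42, a small heat shock protein gene, measured 9.00 at 25C and 9.44 and 9.54 at 37C, and SIS1, a J-protein gene, 8.37 at 25C and 8.48 and 8.63 at 37C, all below background. SSE2, a paralog of SSE1, lay above background on all 3 arrays with nearly one level, 10.62 at 25C and 10.60 and 10.70 at 37C. CUR1, a sorting factor gene named after its values were seen, differed by 0.03 (-0.16 set-adjusted).

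In a view that does not rest on the set adjustment, the 25C array was placed against all 6 arrays from 37C cells, mutants included. It lay above all 6 in 1213 of the 5449 genes (22.3%) and below all 6 in 558 (10.2%). Of the Hsf1 chaperone genes, 13 of 26 (50.0%) lay highest on the 25C array and 0 lay lowest. Among them were STI1, HSP82, SSA1, SSA4, HSP104 and HSP26. Under 4 other scalings the counts over all genes ranged from 809 to 1282 above and from 522 to 924 below, and those of the list were 12 or 13 above and 0 below. STI1 measured 10.53 and 11.23 on the mutant arrays of the 25C array's set and 10.49 and 10.24 on those of the other, against 11.66 at 25C. For SSA4 the mutant values were 10.52, 10.77, 10.27 and 10.15, against 11.45 at 25C. The median of the list on the 25C array lay 0.49 above the mutant 37C arrays of the same set, where the median of all genes lay 0.10 above. On the wild type 37C arrays the list's median was 0.09 above the mutants of their own set, and that of all genes 0.05 above.

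**Figure D2:**
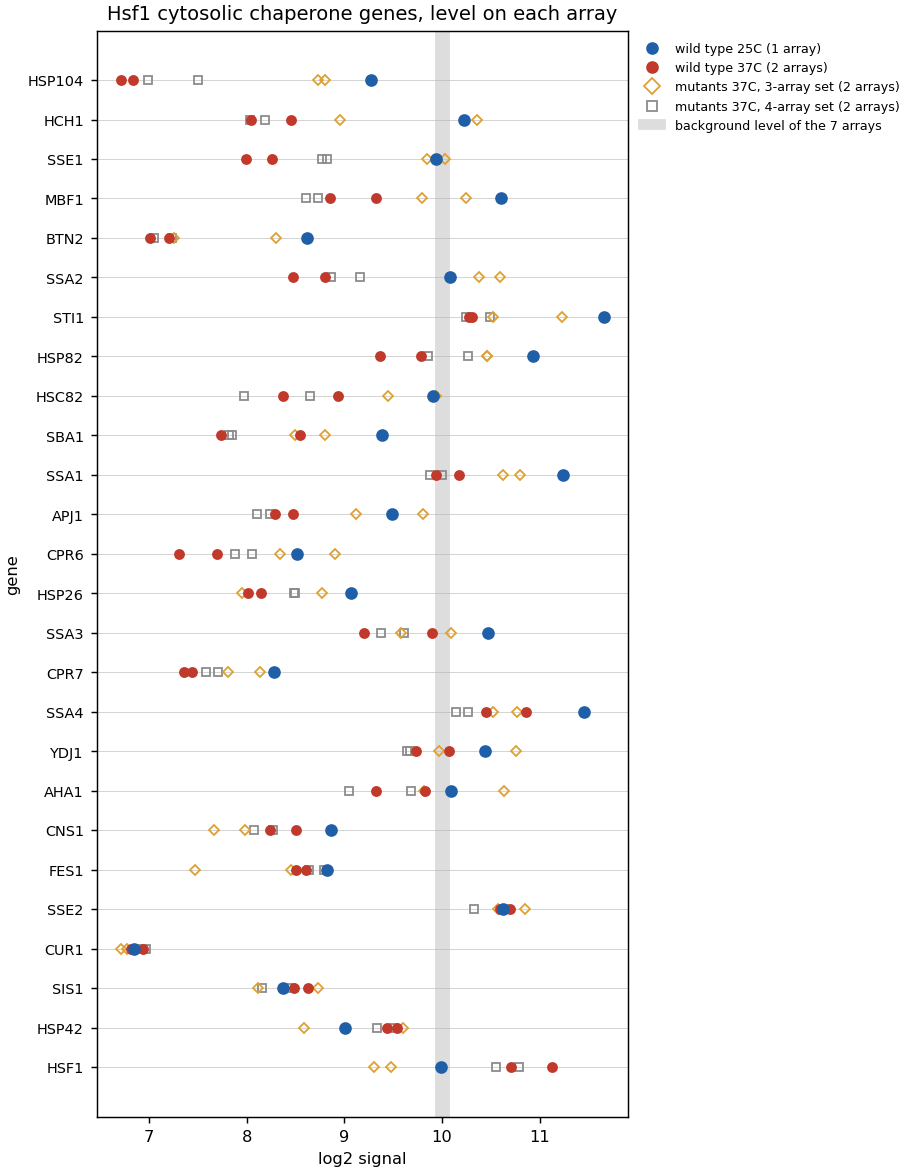
Level of the 26 Hsf1 cytosolic chaperone genes on each of the 7 arrays (x axis, log2 signal), ordered by the difference between 37C and 25C in wild type cells. Blue points are wild type at 25C, red points wild type at 37C, open symbols the mutants at 37C by array set, and the grey band the background. For 13 genes the blue point lies to the right of all the others.

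Chaperones of other compartments stood in the same order with smaller medians. Of 10 mitochondrial chaperone genes, 7 lay lower at 37C, with a median difference of -0.50 (-0.31 set-adjusted). An unadjusted p under 0.05 was reached by 2 lower genes, 20% of the list against 6.94% of all genes. Those were the genes of the mitochondrial chaperonin and its cap. HSP60 measured 10.42 at 25C and 9.05 and 7.95 at 37C, and HSP10 measured 10.46 at 25C and 8.62 and 9.02 at 37C. Both were above all 6 arrays from 37C cells, as were 4 of the 10 genes, against 22.3% of all genes. Under each of the 4 other scalings 3 of the 10 genes were, against 809 to 1282 of all 5449 genes. HSP78, the mitochondrial relative of HSP104, was below background, at 7.91 at 25C and 8.19 and 8.81 at 37C, and its direction turned with set adjustment (-0.38).

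In the endoplasmic reticulum list, 19 of 26 genes lay lower (median -0.56, set-adjusted -0.18). KAR2, the gene of the luminal Hsp70, measured 11.35 at 25C and 10.01 and 10.14 at 37C, 2.43-fold lower. PDI1, which encodes protein disulphide isomerase, measured 10.79 at 25C and 8.94 and 9.64 at 37C. SEC61, the gene of the translocation channel, was level, at 10.19 at 25C and 10.21 and 10.20 at 37C. The ribosome-associated and TRiC chaperones had 17 of 21 genes lower (median -0.45, set-adjusted -0.18). The TRiC ring subunit gene CCT2 measured 10.85 at 25C and 10.23 and 10.57 at 37C, above background on every array.

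The general stress genes driven by Msn2 and Msn4 did not lie to one side. Of 36 measured, 16 lay higher and 20 lower. At an unadjusted p under 0.05 stood 1 higher gene, RTN2, and 4 lower genes, HOR7, HSP12, YAK1 and YGP1. These are 2.78% and 11.1% of the list, against 3.25% and 6.94% of all genes. The median of -0.39 became 0.04 with set adjustment. The 2 with the largest differences among those above background went opposite ways. HOR7, a hyperosmolarity-responsive gene, measured 11.77 at 25C and 10.23 and 8.99 at 37C, at least 3.08-fold lower, with an SD of 0.87 between the 37C arrays. RTN2, a reticulon gene, measured 9.45 at 25C and 10.88 and 11.26 at 37C, at least 2.19-fold higher. HSP12, which encodes a membrane-protecting small protein, measured 11.57 at 25C and 10.51 and 9.45 at 37C, at least 2.42-fold lower. CTT1, the cytosolic catalase gene, was below background on all 3 arrays, at 9.15 at 25C and 9.31 and 9.55 at 37C. The factor genes were below background as well. MSN2 measured 8.43 at 25C and 9.66 and 9.25 at 37C, and MSN4 measured 8.63 at 25C and 8.41 and 8.59 at 37C.

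Trehalose and glycogen genes were evenly split, 10 higher and 10 lower (median -0.08, set-adjusted 0.08). At an unadjusted p under 0.05, 3 lay higher and 1 lower. These are 15% and 5% of the list, against 3.25% and 6.94% of all genes. Of these only GAC1 passed background, on 1 array at 37C. TPS1, the gene of trehalose phosphate synthase, measured 10.61 at 25C and 10.06 and 9.86 at 37C, at least 1.46-fold lower. TSL1, a regulatory subunit gene of the same complex, measured 10.08 at 25C and 10.10 and 10.36 at 37C, while the phosphatase gene TPS2 lay below background at 9.24 at 25C and 8.71 and 8.92 at 37C. GAC1, which encodes the targeting subunit that directs a phosphatase to glycogen synthase, had the largest difference of the list. It measured 7.62 at 25C and 10.32 and 9.89 at 37C, and was above background only on the first 37C array.

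Proteasome genes lay mostly lower, and ubiquitin genes stood near the median of all genes. Of 42 proteasome genes, 35 lay lower at 37C and 7 higher (median -0.61, set-adjusted -0.16). On the 25C array, 13 (31.0%) lay highest among all 7, against 22.3% of all genes. With median centring or cyclic loess 9 of the 42 did, against 830 and 809 of all 5449 genes. An unadjusted p under 0.05 was reached by 4 lower genes, PRE3, RPN3, RPT2 and RPT5, all below background and 1.08 to 1.76 lower. That is 9.52% of the list, against 6.94% of all genes. Most proteasome genes were dim, with 5 above background at 25C and 2 and 1 at 37C. RPN7, a lid subunit gene, measured 10.61 at 25C and 10.22 and 9.79 at 37C, and RPN8, another, 10.26 at 25C and 8.97 and 8.77 at 37C. UMP1, the gene of a proteasome assembly factor, stood on the other side, at 10.59 at 25C and 10.65 and 11.26 at 37C. In the ubiquitin list, 19 of 30 genes lay lower (median -0.11, set-adjusted -0.08), against 3276 of all 5449 genes and a median of -0.17. The polyubiquitin gene UBI4, which heat induces in textbook accounts, was below background, at 9.63 at 25C and 7.68 and 7.68 at 37C. RPS31, which makes ubiquitin fused to a ribosomal protein, measured 11.07 at 25C and 8.41 and 7.52 at 37C, at least 2.06-fold lower.

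Cell wall integrity genes lay on both sides. Of 38 measured, 24 lay lower and 14 higher (median -0.32, set-adjusted -0.21). At an unadjusted p under 0.05 stood 7 lower genes and 2 higher ones, PKC1 and the sensor gene MTL1. These are 18.4% and 5.26% of the list, against 6.94% and 3.25% of all genes. PKC1, the gene of the pathway's first kinase, measured 6.60 at 25C and 8.93 and 9.11 at 37C. It lay 2.42 higher at 37C and lowest on the 25C array among all 7, but below background on each wild type array, so no fold is given. SLT2, the gene of the pathway's MAP kinase, was above background and level, at 10.66 at 25C and 10.45 and 10.77 at 37C. The wall protein and wall synthesis genes named here lay lower. HSP150, which encodes a heat-inducible secreted wall protein, measured 11.41 at 25C and 8.75 and 9.40 at 37C, at least 2.60-fold lower. SED1, a major wall protein gene, measured 10.17 and 10.09 at 37C against 11.44 at 25C, 2.48-fold lower. FKS1, the glucan synthase gene, measured 9.95 at 25C and 8.05 and 7.64 at 37C, and KRE6, needed for beta-1,6-glucan, 10.09 at 25C and 8.52 and 7.97 at 37C.

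The osmolyte and HOG list had 10 genes on either side and 0 at an unadjusted p under 0.05 (median -0.11). Oxidative stress genes had 14 higher and 16 lower (median -0.17, set-adjusted 0.03). The peroxiredoxin gene AHP1 measured 11.28 at 25C and 10.03 and 9.89 at 37C, and the cytochrome c peroxidase gene CCP1 measured 10.46 at 25C and 10.59 and 10.87 at 37C. Set adjustment turned the direction of both (0.036 and -0.034).

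Cytosolic ribosomal protein genes had the largest downward medians after those of the Ty elements. Of 75 large subunit genes, 73 lay lower at 37C, 27 of them (36.0% of the list) at an unadjusted p under 0.05, with a median difference of -1.62. Of 53 small subunit genes, 48 lay lower, 16 (30.2%) at an unadjusted p under 0.05, with a median of -1.46. Over all genes, 6.94% lay lower at that p. Above background were 49 large subunit genes at 25C and 4 and 5 at 37C, and 28 small subunit genes at 25C and 5 and 6 at 37C. RPS30A measured 11.25 at 25C and 7.38 and 7.60 at 37C, at least 2.34-fold lower, and RPL14B measured 11.22 at 25C and 8.11 and 7.96 at 37C. RPL24B remained above background throughout, at 11.60 at 25C and 10.12 and 10.25 at 37C, 2.67-fold lower. Other bright members stood closer or higher. RPS11A measured 10.95 at 25C and 10.74 and 10.45 at 37C, and RPL26A measured 10.14 at 25C and 11.38 and 10.12 at 37C. Many of these genes come in near-identical pairs whose probe sets can share targets.

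The ribosomal protein genes followed the array set in the mutants as well. Set-adjusted medians were -0.15 for the large and -0.12 for the small subunit, with 0 and 2 genes lower at an unadjusted p under 0.05. With the wild type arrays at 37C as the reference, the large subunit median lay 1.62 higher on the 25C array, and 1.43 and 1.74 higher on the mutant 37C arrays of that set. On the mutant arrays of the other set it lay 0.00 and 0.42 higher. A low level of these transcripts was thus measured on some arrays of 37C cells and not on others, and wild type 37C cells were measured only where it was low.

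Genes that make and use ribosomes had smaller medians. Of 104 ribosome biogenesis genes, 78 lay lower (median -0.59, set-adjusted -0.19). At an unadjusted p under 0.05 stood 12 lower genes and 2 higher ones, CRF1 and NIP7, both below background. The lower and higher ones are 11.5% and 1.92% of the list, against 6.94% and 3.25% of all genes. On the 25C array 32 (30.8%) lay highest among all 7 arrays, against 22.3% of all genes. With median centring 23 of the 104 did, against 830 of all 5449 genes. BUD22, for assembly of the small subunit, measured 11.03 at 25C and 9.88 and 10.40 at 37C, at least 1.8-fold lower, and lay highest at 25C. GAR1, a gene of pseudouridylation particles, measured 10.57 at 25C and 9.21 and 8.98 at 37C. The RNA polymerase I and III list had 30 of 41 lower (median -0.31, set-adjusted -0.13), and aminoacyl-tRNA synthetases had 14 of 21 lower (median -0.59, set-adjusted 0.01). Mitochondrial ribosomal protein genes had 53 of 75 lower and a median of -0.20 (set-adjusted -0.09), near that of all genes.

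Among translation factors, 32 of 40 genes lay lower (median -0.47, set-adjusted -0.10). The elongation factor genes held the largest differences. TEF2, one of a pair for elongation factor 1A with the same product, measured 12.43 at 25C and 9.70 and 9.94 at 37C, at least 5.30-fold lower. YEF3, for elongation factor 3, measured 11.01 at 25C and 7.86 and 7.67 at 37C, and HYP2, for eIF5A, measured 11.60 at 25C and 8.90 and 8.89 at 37C. The eIF4B gene TIF3 measured 11.68 at 25C and 10.27 and 9.97 at 37C, at least 2.85-fold lower, and was highest at 25C among the 7 arrays. RPG1, for a subunit of eIF3, lay on the other side, at 11.05 at 25C and 11.47 and 11.49 at 37C.

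Glycolysis and fermentation genes, among the most abundant transcripts of yeast on glucose, stood like the ribosomal proteins. Of 25 measured, 22 lay lower at 37C, with a median of -1.28. Unadjusted p was under 0.05 in 5 of them, ADH1, ENO1, GCR1, PDC1 and TPI1, 20% of the list against 6.94% of all genes. Above background were 16 at 25C and 5 and 3 at 37C. TDH3, the main glyceraldehyde phosphate dehydrogenase gene, measured 12.18 at 25C and 10.23 and 10.28 at 37C, 3.79-fold lower. PDC1, for pyruvate decarboxylase, measured 11.89 at 25C and 8.93 and 9.07 at 37C, at least 3.65-fold lower. ENO2, an enolase gene, measured 11.82 at 25C and 9.98 and 10.05 at 37C, at least 3.47-fold lower, and ADH1, the fermentative alcohol dehydrogenase gene, measured 11.83 at 25C and 8.81 and 9.10 at 37C. The set-adjusted median was -0.09. The mutant 37C arrays of the 25C array's set lay 1.31 and 1.18 above the wild type 37C mean, as the 25C array did at 1.28. TDH3 measured 12.43 and 12.50 on those mutant arrays.

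Other carbon and energy genes were nearer to the median of all genes. Glucose uptake and signalling had 20 of 34 lower (median -0.25, set-adjusted -0.08), and gluconeogenesis, glyoxylate and acetate use had 16 of 27 lower (median -0.13, set-adjusted 0.01). HXT17, a gene of the hexose transporter family with near-identical relatives, measured 10.12 at 25C and 7.31 and 8.43 at 37C. Respiration and ATP synthase had 42 of 58 lower (median -0.52, set-adjusted -0.14). INH1, which encodes the inhibitor of the mitochondrial ATPase, measured 10.92 at 25C and 8.82 and 9.02 at 37C, at least 1.86-fold lower. ATP7, a stalk subunit gene of that enzyme, measured 10.02 at 25C and 10.62 and 10.91 at 37C, 1.67-fold higher.

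Membrane lipid and membrane pump genes held some of the larger single differences. Ergosterol synthesis had 20 of 28 lower (median -0.61, set-adjusted -0.08). ERG11, for the demethylase that azole drugs inhibit, measured 10.82 at 25C and 9.25 and 9.39 at 37C, and the squalene epoxidase gene ERG1 measured 10.14 at 25C and 8.97 and 9.17 at 37C. The fatty acid, phospholipid and sphingolipid list was split, 18 higher and 23 lower (median -0.08, set-adjusted 0.12). OLE1, the gene of the only fatty acid desaturase of yeast, measured 10.69 at 25C and 8.79 and 6.73 at 37C, at least 1.59-fold lower, with an SD of 1.46 between the 37C arrays. OLE1 lay highest on the 25C array, above 10.34 and 10.54 on the mutant arrays of its set and 9.19 and 9.31 on the others. ACC1, for the first enzyme of fatty acid synthesis, measured 10.56 at 25C and 8.72 and 8.75 at 37C, and was also above all 6 arrays from 37C cells.

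Plasma membrane and vacuolar ATPases had 20 of 25 genes lower (median -0.70, set-adjusted -0.18). PMA1, the proton pump gene of the plasma membrane, measured 11.40 at 25C and 9.67 and 8.26 at 37C, at least 2.59-fold lower. PMP1, which encodes a small regulator of that pump, measured 10.56 at 25C and 7.19 and 6.94 at 37C. PTK2, for a kinase that activates the pump, lay higher, at 10.46 at 25C and 11.01 and 11.15 at 37C.

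Amino acid synthesis genes lay lower in 49 of 62 (median -0.39, set-adjusted -0.08), and 19 (30.6%) lay highest on the 25C array among all 7, against 22.3% of all genes. With median centring 11 of the 62 did, against 830 of all genes. TRP2, for the first step of tryptophan synthesis, measured 10.33 at 25C and 8.21 and 7.86 at 37C. In the sulphur and methionine list 19 of 31 lay lower (median -0.17), with MET1, for sirohaem synthesis, at 8.93 at 25C and 10.73 and 10.45 at 37C, at least 1.57-fold higher. MET28, a regulator gene of the same pathway, stood opposite, at 10.81 at 25C and 8.88 and 9.53 at 37C. Purine, pyrimidine and one-carbon genes had 31 of 41 lower (median -0.41, set-adjusted -0.10), and iron, copper and haem genes 23 of 42 (median -0.07, set-adjusted 0.07). Phosphate and zinc genes had 20 of 27 lower (median -0.35, set-adjusted 0.04), and nitrogen use and permeases 24 of 38 (median -0.13, set-adjusted 0.10). DAL82, for an activator of allantoin use, lay higher, at 10.23 at 25C and 11.31 and 11.32 at 37C, 2.12-fold, and lowest on the 25C array among the 7.

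The list of seripauperins and hypoxic genes was the one with the largest upward median. Seripauperins are small cell wall mannoproteins of a large family near chromosome ends, known for induction by lack of oxygen and by cold. Of 26 genes measured, 19 lay higher at 37C and 7 lower, with a median difference of 0.99. At an unadjusted p under 0.05, 7 lay higher (26.9% of the list) and 0 lower, against 3.25% and 6.94% of all genes. PAU23 gave the highest signal of all genes on the first 37C array, at 12.15 at 25C and 14.20 and 14.19 at 37C, 4.12-fold higher. PAU17 measured 10.68 at 25C and 14.06 and 12.90 at 37C, 6.98-fold higher. PAU5 measured 10.90 at 25C and 12.20 and 12.19 at 37C, and PAU18 8.86 at 25C and 11.15 and 10.83 at 37C. Family members are so alike that their probe sets cannot be taken as separate genes.

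The seripauperin values also followed the array set. The set-adjusted median was 0.26, with 0 genes at an unadjusted p under 0.05. On the mutant 37C arrays of the 25C array's set, PAU23 measured 12.20 and 11.98, close to the 25C value, and on those of the other set 13.94 and 12.86. PAU17 lay lowest on the 25C array, with 12.01 and 10.90 on the mutant arrays of its set and 14.05 and 13.75 on the others. In all, 8 of the 26 lay lowest on the 25C array among the 7, where 10.2% of all genes did.

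**Figure D3:**
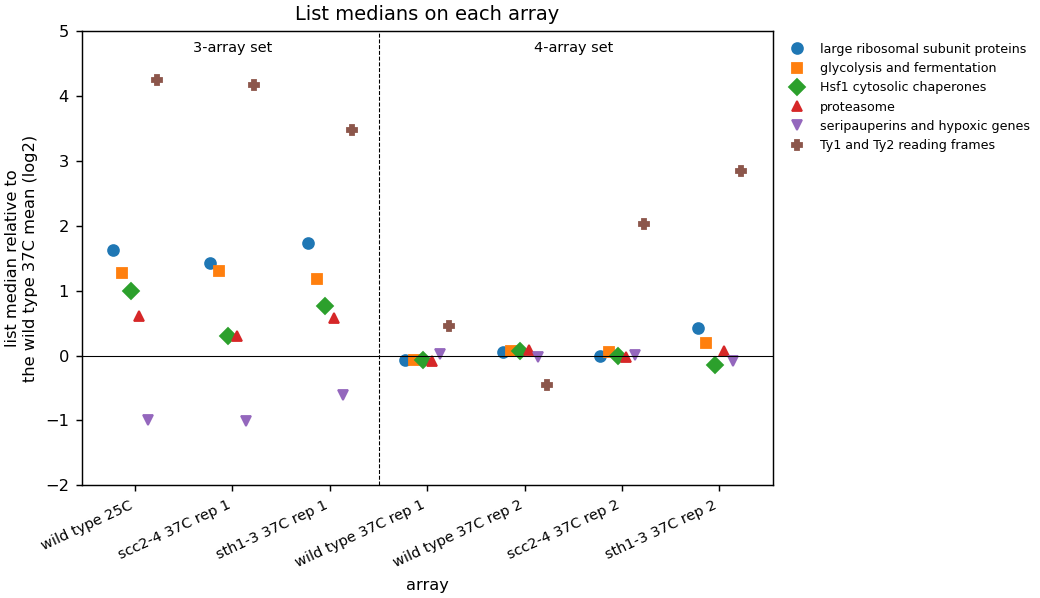
Median of 6 gene lists on each array relative to the mean of the wild type 37C arrays (y axis, log2), with the arrays (x axis) ordered by array set and the dashed line between the sets. The ribosomal protein and glycolysis lists lie near their 25C medians on the mutant 37C arrays of the same set. The Ty list lies lower on the wild type 37C arrays than on any other.

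The cell cycle lists had medians above that of all genes, and histone genes lay mostly lower. G1/S genes had 28 higher and 18 lower (median 0.26, set-adjusted 0.10), and G2/M and M/G1 genes 20 higher and 18 lower (median 0.03, set-adjusted 0.07). PDS1, the securin gene, measured 10.33 at 25C and 11.20 and 11.56 at 37C, 2.06-fold higher, and lay lowest on the 25C array among the 7. DPB2, a subunit gene of DNA polymerase epsilon, measured 9.14 at 25C and 10.63 and 10.42 at 37C, at least 1.5-fold higher. Histone genes had 8 of 10 lower (median -0.56, set-adjusted 0.01). HHF1, a histone H4 gene whose probe set is marked as shared, measured 10.31 at 25C and 7.77 and 7.74 at 37C. Cohesin, its loader and RSC had 16 of 27 lower (median -0.07). SCC4, for the partner of Scc2, measured 11.07 at 25C and 10.51 and 10.17 at 37C, 1.66-fold lower, with its direction turned by set adjustment (0.14). Of the genes mutated in the other strains of the study, SCC2 measured 7.56 at 25C and 7.25 and 7.74 at 37C and STH1 9.27 at 25C and 9.35 and 9.70 at 37C, all below background. Set adjustment turned the direction of STH1 (-0.10).

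Mating type and pheromone genes had 27 of 38 higher (median 0.22, set-adjusted 0.03), and meiosis and sporulation genes 24 of 49 higher (median 0.00). The genes that could mark the mating type gave no signal, with 0 of 7 a-specific and 0 of 6 alpha-specific genes above background on any wild type array. IME1, the inducer of meiosis, measured 7.68 at 25C and 10.15 and 10.02 at 37C, above background on the first 37C array. Of the 5 genes measured that carry a marker allele in the strain, LEU2 passed background on the second 37C array at 10.12, against 9.36 at 25C and 9.88 on the first. ADE2 measured 9.22 at 25C and 9.17 and 9.53 at 37C, HIS3 9.58 at 25C and 9.37 and 9.29 at 37C, and URA3 9.20 at 25C and 7.997 and 7.78 at 37C.

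Reading frames of the Ty1 and Ty2 retrotransposons held the largest differences. Ty elements copy themselves through RNA, and their transcripts are among the most abundant of the yeast cell. Of the 85 annotated frames of the list, 9 were measured here. The probe sets of all Ty frames named here are marked as shared, so the frames cannot be taken as separate genes. All 9 lay lower at 37C, 8 of them (88.9%) at an unadjusted p under 0.05, with a median difference of -4.26. YER138W-A showed the largest difference of any gene, at 12.67 at 25C and 5.97 and 5.98 at 37C, at least 6.27-fold lower. Its set-adjusted difference was -1.64. On the mutant 37C arrays YER138W-A measured 13.00 and 11.99 in the 25C array's set and 6.45 and 8.44 in the other. YDR261C-D measured 12.07 at 25C and 8.19 and 6.80 at 37C, and YDR261W-B 12.11 at 25C and 8.20 and 7.50 at 37C. YDR316W-B measured 12.03 at 25C and 8.25 and 7.23 at 37C, and YBL100W-B 10.94 at 25C and 6.76 and 6.40 at 37C. YAR010C, the only one above background on a 37C array, measured 12.33 at 25C and 10.84 and 9.94 at 37C, at least 3.68-fold lower. YBL100W-A measured 10.46 at 25C and 8.89 and 7.96 at 37C.

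The Ty list kept a low median after set adjustment, at -2.04, with 8 of 9 lower at an unadjusted p under 0.05. With the array set as a term, limma called 4 genes in all, each of them a Ty frame lower at 37C (0.0734% of the genes), while 36 genes lay higher (0.661%) and 71 lower (1.3%) at an unadjusted p under 0.05. They were YDR261C-D (difference -3.36, adjusted p = 9.04e-05), YDR261W-B (-2.94, adjusted p = 0.00106), YBL100W-B (-2.76, adjusted p = 0.013) and YDR316W-B (-2.60, adjusted p = 0.0134). That fit drew nearly every gene to 1 common spread, so a gene that varies more than most gets too small a p from it. The probe sets of the 4 called frames are marked as shared, so the calls cannot be counted as 4 separate results. On the 25C array, 3 of the 4 called frames lay above all 6 arrays from 37C cells, YDR261C-D by 0.40, and YBL100W-B lay inside their range. At 25C the list's median lay 0.17 above the mutant 37C arrays of the same set, and at 37C it lay 2.44 below the mutant 37C arrays of its set. YDR261C-D measured 11.67 and 11.20 on the former mutant arrays and 10.09 and 10.35 on the latter. The first of these pairings differs in temperature and strain, and the second in strain. By its definition the set-adjusted difference of a gene is its difference in the second pairing minus that in the first. For the list, the second pairing, at 37C on both sides, held the larger difference by these medians. Whether strain, temperature or replicate lay behind the 4 calls was not tested.

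Small lists of other repeated sequence were also measured. Of 9 genes for the Y' helicases and the COS family near chromosome ends, 7 lay lower (median -0.60, set-adjusted -0.42), with COS4 at 10.96 at 25C and 8.64 and 8.89 at 37C. Of 12 reading frames in the ribosomal DNA, 2 were measured. YLR154C-H measured 11.52 at 25C and 11.67 and 11.96 at 37C, with its direction turned by set adjustment (-0.40). On the mutant arrays it measured 9.55, 9.45, 11.37 and 9.03. As double-stranded cDNA was labelled, either strand of the ribosomal DNA could give such signal.

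**Figure D4:**
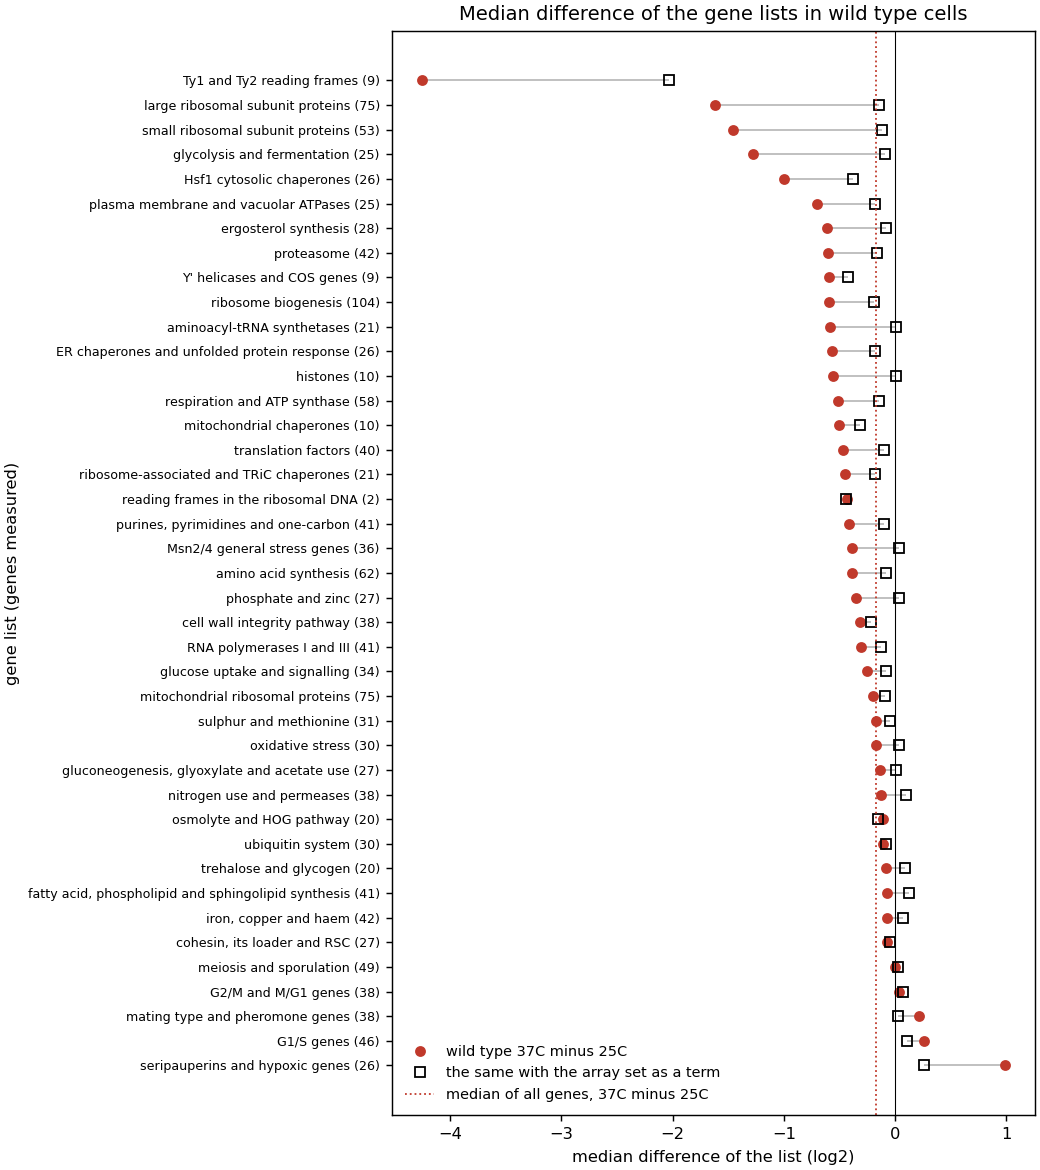
Median difference of each of the 41 gene lists in wild type cells (37C minus 25C, log2, x axis), as measured (red points) and set-adjusted (open squares), with the genes measured in brackets. The dotted line is the median of all genes. The squares lie near 0 for most lists, and that of the Ty frames lies at -2.04.

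The 10 genes higher at 37C with the smallest p, among those above background on both 37C arrays and with no overlap, each had a limma adjusted p of 0.449. SEF1, a transcription factor gene, measured 9.83 at 25C and 11.55 and 11.54 at 37C, at least 3.04-fold higher. DFR1, for dihydrofolate reductase, measured 9.17 at 25C and 10.81 and 11.08 at 37C, at least 2.01-fold higher. CEF1, for a splicing factor, measured 8.76 at 25C and 10.69 and 10.40 at 37C, and MLP1, for a protein of the nuclear pore basket, 8.80 at 25C and 10.26 and 10.57 at 37C. HEM1, for the first enzyme of haem synthesis, measured 8.49 at 25C and 10.06 and 10.08 at 37C. SIP2, for a subunit of the Snf1 kinase, measured 9.01 at 25C and 10.58 and 10.61 at 37C, and TRM5, for a tRNA methyltransferase, 8.84 at 25C and 10.44 and 10.64 at 37C. PEP1, for the vacuolar sorting receptor, and YBR197C, without a named function here, lay 1.22 and 1.34 higher. The tenth was PAU23.

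The set-adjusted differences of these genes were 1.23 for DFR1, 1.19 for CEF1 and 1.19 for MLP1, and 0.65 for SEF1. All of the 10 but PAU23 lay lowest on the 25C array among the 7. They were picked for a small p in the same comparison, so this carries no test.

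Of the 10 lower genes with the smallest p among those above background at 25C and with no overlap, 6 were the Ty frames YBL100W-A, YAR010C, YBL100W-B, YDR261C-D, YDR316W-B and YDR261W-B. The probe sets of these 6 are marked as shared. The other 4 were KRE6, MNN1, KAP95 and TAD2. MNN1, for a mannosyltransferase of the Golgi, measured 10.04 at 25C and 8.16 and 8.501 at 37C. KAP95, for importin beta, measured 10.04 at 25C and 8.08 and 8.44 at 37C, and TAD2, for a tRNA adenosine deaminase, 10.58 at 25C and 8.78 and 9.24 at 37C. TAD2 lay highest on the 25C array, above 9.66 and 9.72 on the mutant arrays of its set and 9.06 and 9.43 on the others.

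**Figure D5:**
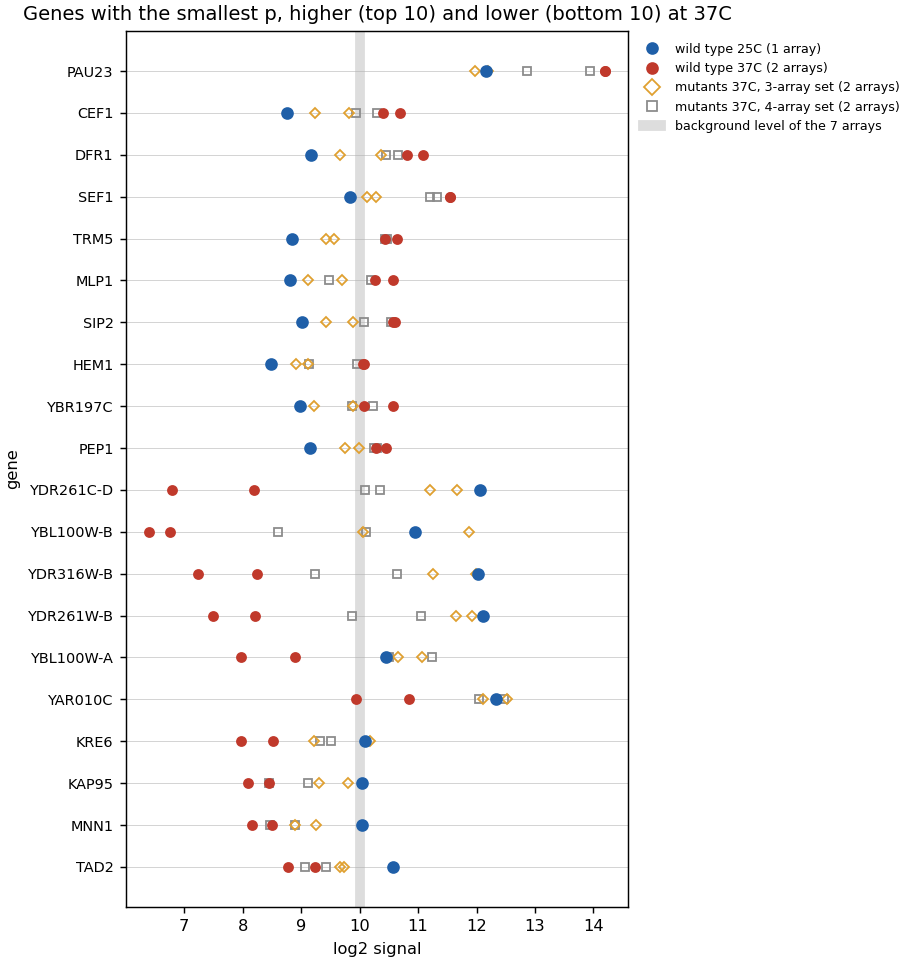
Level on each of the 7 arrays (x axis, log2 signal) of the 10 genes higher and the 10 genes lower at 37C with the smallest p in wild type cells, among genes with no overlap and above background on both 37C arrays (higher) or at 25C (lower). Symbols are wild type at 25C (blue), wild type at 37C (red) and the mutants at 37C by array set (open), and the grey band is the background. For the genes at the top except PAU23 the blue point is the leftmost, and for the Ty frames the red points lie left of the mutants.

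The genes in which the 25C array stood farthest outside all 6 arrays from 37C cells rest on every 37C array. Among genes above background at 25C, the gaps above were largest in MNN1, TAD2, SYP1, RPP1 and FRE5. RPP1, for a subunit of RNase P and RNase MRP, measured 10.47 at 25C and between 9.42 and 9.72 on the 6 arrays. SYP1, for an endocytic protein that also acts on septins, measured 10.34 at 25C and between 9.25 and 9.66 on the 6. FRE5, for a reductase-like protein induced by low iron, measured 10.66 at 25C and between 9.77 and 9.97 on the 6. In the other direction, among genes above background on all 6, stood YIR016W, SRO7, FMS1, YAT1 and NFI1. SRO7, for an effector of exocytosis, measured 9.51 at 25C and 10.18 to 10.81 on the 6. FMS1, for a polyamine oxidase, measured 9.65 at 25C and 10.19 to 10.54 on the 6, and NFI1, for a SUMO ligase, 9.65 at 25C and 10.04 to 10.41. YAT1, for a carnitine acetyltransferase, measured 10.02 at 25C and 10.36 to 11.02 on the 6, and YIR016W 10.26 at 25C and 10.67 to 11.18. Above all 6 and above background at 25C lay 224 genes, and below all 6 with all 6 above background lay 24. The first filter asks for 1 array and the second for 6, so these counts are not alike. Without a filter they were 1213 and 558. The 25C array has no replicate, so how far a second one would lie from it is not known.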

How the data were processed

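RNA of S. cerevisiae was measured on 7 one-colour Affymetrix Yeast Genome 2.0 arrays, from double-stranded cDNA cut and labelled at its ends, so strands are not told apart. The deposited values are log2 signals, 1 per probe set, which the authors made with RMA and affy, per the submitters' processing notes, with no versions given. Whether all arrays were normalized together is not given in the sources used here. Scanner files were not used here. Of 10928 probe sets, 5498 had 1 S. cerevisiae symbol and 1746 an S. pombe one, 1 had several symbols and 3683 were unnamed here. RefSeq names changed 12 symbols. The brightest probe set on average stood for each of the 47 genes with several, which left 5449 genes.

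Groups came from the sample titles. All 7 arrays were fitted with a mean per group (3 residual degrees of freedom) in R 4.3.3 with limma 3.58.1 (lmFit, then eBayes), two-sided, with Benjamini-Hochberg adjustment over all genes and a threshold of 0.05. The spread in that fit includes the difference between the array sets, because the replicates of either mutant lie in both. The array set was a term in a further fit. No label states that replicates were grown separately, so every p-value rests on array-to-array spread that may be technical. The number of arrays limits every value. The procedure was tested on simulated data.

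The comparison, the 41 gene lists (1441 of 1546 entries measured) and the naming rule were chosen with earlier results of these data known. The rule named the 10 genes each way with the smallest p among bright, non-overlapping genes, the brightest and most different members of each list, a set of heat and marker genes, and the 5 genes each way farthest from all 6 arrays at 37C. It gave 214 genes, not all of which are printed. Members named only to spell out a count of 5 or fewer were chosen after their values were seen, and at that stage 2 list errors were corrected from the annotation: frames of Ty4 left the Ty list, and KDX1 replaced a gene of the same alias on the cell wall list.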

Additional observations from a re-analysis of the deposited data

Results flagged for a closer look

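Ribosomal RNA gave signal outside the gene comparison. The 8 control probe sets of the 18S rRNA lay 1.8 higher on the wild type 37C arrays (12.85 and 13.12) than on the 25C array (11.18), all 8 in the same direction. On the mutant 37C arrays they averaged 11.27 and 10.73 in the set of the 25C array and 13.44 and 12.4 in the other.

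The 5.8S rRNA probe set lay 4.49 higher on the wild type 37C arrays (12.87 and 12.92) than on the 25C array (8.4). The mutant 37C arrays gave 7.5 and 8.0 in the set of the 25C array, and 12.98 and 8.92 in the other. The 25S rRNA measured 14.23 at 25C and 12.91 and 13.32 at 37C at its 3' end, and 11.1 at 25C and 12.62 and 13.0 at 37C at its 5' end. The part of these differences in the gene results was not tested.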

How the results depend on the processing

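No paired analysis was possible because the single 25C array carries no replicate number that a pair of 37C arrays could share. With each of 17 alternatives in turn, the number of called genes was 0 except in 4 fits. It was 911 with the wild type arrays alone, where eBayes gave every gene the same spread, 4 with the array set as a term, and 1 without either scc2-4 array, where YBL100W-B had an adjusted p of 0.0456. Leaving out 1 array gave 0 to 1 called genes, 59 to 294 higher and 115 to 669 lower genes at an unadjusted p under 0.05, the lowest without a wild type 37C replicate (65 and 115 without replicate 1, 59 and 138 without replicate 2) and the highest without an sth1-3 array. Higher and lower genes numbered 537 and 1085 with the wild type arrays alone, 36 and 71 with the array set, and 29 and 83 of 905 without dim genes. With median centring they numbered 304 and 221, with quantile normalization 303 and 272, and with cyclic loess 268 and 249. The median of all genes, -0.17 as deposited, lay at 0.01, 0.01 and 0.00 after these 3 scalings and at -0.28 after S. pombe centring. Genes below all 6 arrays at 37C numbered 924, 893 and 917 with these scalings, and 106 below and 140 above without dim genes. The 95th percentile for background gave 705 genes at 25C, the 90th 1137 and the 99th 176.

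The differences of the 133 genes named were recomputed under the 17 alternatives, and 29 of the 2210 values turned the sign. Many of these values could not turn. Fits of the wild type arrays alone, without dim genes, without a mutant array or with another spread estimate leave a gene's difference as it was. The share that turned is therefore no measure of how stable the directions are. With the array set as a term, the signs turned in AHP1 (0.036), CCP1 (-0.034), CUR1 (-0.16), HSC82 (0.14), HSF1 (-0.35), HSP78 (-0.38), SCC4 (0.14), SSA2 (0.032), STH1 (-0.10), YDJ1 (0.17) and YLR154C-H (-0.40). With median centring they turned in MSN4 (0.054), SCC2 (0.11) and SLT2 (0.13), with quantile normalization in the same 3 (0.073, 0.17 and 0.12), and with cyclic loess in MSN4 (0.069), SCC2 (0.23) and SSE2 (-0.004). S. pombe centring turned CUR1 (-0.082), SEC61 (-0.084) and SSE2 (-0.085). Leaving out a wild type 37C replicate turned ADE2 (-0.048 to 0.31), CUR1 (-0.034 to 0.085), RPL26A (-0.021 to 1.24), SCC2 (-0.32 to 0.18), SLT2 (-0.21 to 0.10) and SSE2 (-0.026 to 0.072). Low signal over background limits the rest: 4415 of 5449 genes were below background on all 3 wild type arrays, and differences among them are bounded by it.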
